A study of Rattus norvegicus with 8 samples.

Results

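The 8 genes of hepatic glucose metabolism followed here were measured in rat liver after 90 days of furan: Pck1, G6pc, Fbp1, Slc2a2, Pklr, Pkm, Hk1 and Hk2. They were found by gene symbol in the array annotation, and the set was chosen with earlier results of these data known. Pkm was accepted under its older name Pkm2. They made up 8 of 17678 features tested (a feature is 1 gene or 1 unnamed probe), and they were read by 10 of 30197 probes, 9 of which were bright enough to test. The furan group was 4 male Fisher 344 rats aged 18 weeks that received furan, a rodent liver carcinogen, by gavage over 90 days (8 mg per kg of body weight daily, 5 days per week). The control group was 4 male rats of the same strain and age, and the vehicle they received and the feeding state of either group at death are not given in the sources used here. All were killed 24 hours after the last dose, and each array read liver RNA of a separate animal in 1 colour (Cy3). Levels are log2 signals with the 75th percentile of each array set at 0, so that levels of different probes cannot be ranked against each other.

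The liver makes glucose from lactate, amino acids and glycerol by gluconeogenesis, which runs glycolysis backwards except at the irreversible steps, where it uses enzymes of its own: pyruvate carboxylase and PEPCK, fructose-1,6-bisphosphatase and glucose-6-phosphatase. Hepatocytes carry out sugar uptake and glycolysis with their own isoenzymes (among them glucose transporter GLUT2, phosphofructokinase L and pyruvate kinase L), while most other tissues, and many liver tumours, use GLUT1, hexokinases 1 and 2, aldolase A and pyruvate kinase M. A loss of the liver forms with a gain of the other forms is called an isoenzyme switch. Transcription of Pck1 and G6pc is raised by glucagon, cyclic AMP and glucocorticoids and lowered by insulin.

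The promoters of the 3 genes that were lower after furan are shown because they moved together, as the 250 bases before the annotated start in RefSeq (GRCr8, plus strand). Capitals mark matches to motifs searched on both strands. These were the E-box CACGTG, the cAMP response elements TGACGTCA and TTACGTCA, the Sp1 motif GGGCGG and the core promoter motif TATAAA.
Pck1 promoter, chr3:182348322-182348571: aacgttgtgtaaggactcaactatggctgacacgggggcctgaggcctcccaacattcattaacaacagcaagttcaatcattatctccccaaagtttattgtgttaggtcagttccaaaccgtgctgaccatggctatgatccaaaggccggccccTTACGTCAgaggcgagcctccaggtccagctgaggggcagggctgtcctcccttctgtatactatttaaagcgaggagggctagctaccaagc
G6pc promoter, chr10:86807409-86807658: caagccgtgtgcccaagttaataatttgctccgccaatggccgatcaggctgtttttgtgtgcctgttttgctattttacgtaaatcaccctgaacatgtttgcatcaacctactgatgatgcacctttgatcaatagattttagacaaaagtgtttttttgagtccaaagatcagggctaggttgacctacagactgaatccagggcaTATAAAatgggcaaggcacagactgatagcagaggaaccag
Fbp1 promoter, chr17:2213457-2213706: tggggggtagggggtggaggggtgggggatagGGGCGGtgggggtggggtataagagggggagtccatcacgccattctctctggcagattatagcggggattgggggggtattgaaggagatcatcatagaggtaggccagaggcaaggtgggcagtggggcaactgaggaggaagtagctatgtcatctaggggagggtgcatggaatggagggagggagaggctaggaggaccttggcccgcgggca
The Pck1 promoter held TTACGTCA, a cAMP response element motif, from 93 to 86 bases before the start, and 0.750% of 33469 promoter windows of the same length hold these letters. The G6pc promoter held TATAAA at 41 to 36 bases before the start, as did that of Pklr at 29 to 24, and 12.9% of the windows hold it. GGGCGG, present in 30.5% of the windows, lay in the promoters of Fbp1 and Pkm and before 1 of the annotated starts of Hk1. CACGTG, held by 5.59% of the windows, and TGACGTCA, held by 1.59%, were found before none of the 8 genes. A match is a description of the letters and not of binding.

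Pkm was read by a pair of 60-base probes whose sequences are shown because only 1 of them gave a signal (array annotation, rn4 build, plus strand).
Pkm probe at transcript position 1329, chr8:63504373-63504432: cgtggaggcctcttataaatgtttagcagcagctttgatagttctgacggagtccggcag
Pkm probe at transcript position 1510, chr8:63507002-63507061: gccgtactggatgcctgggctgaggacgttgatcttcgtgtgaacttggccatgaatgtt
The pyruvate kinase M gene gives alternatively spliced M1 and M2 forms, and the annotation does not say which of them each probe reads. The probe at position 1329 was not well above background on any of the 8 arrays and was not tested. The probe at position 1510 was well above background on all 8 arrays and gives every Pkm value below. It had 1 spot on each array, against 2 for the other probes of the 8 genes.

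Of the 8 genes, 3 were called lower after furan and 0 higher at an adjusted p below 0.05 in limma, with p adjusted over all 17678 features. Over all features, 16.9% were called lower, 17.3% higher and 34.1% in either direction. The 3 genes were Pck1, G6pc and Fbp1, which are the 3 among the 8 that encode enzymes of gluconeogenesis and glucose release. The glucose transporter Slc2a2, the liver pyruvate kinase Pklr and the non-liver forms Pkm, Hk1 and Hk2 were not called. The same 3 genes were also those in which the groups did not overlap, whereas 36.7% of all features did not overlap, 18% with furan lower and 18.8% with furan higher. The median change over all features was -0.03 on the log2 scale.

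Pck1 encodes cytosolic PEPCK, which converts oxaloacetate to phosphoenolpyruvate, and its probe lies at chr3:164017597-164017656. Its log2 level was 4.08, 4.07, 4.87 and 4.78 in furan rats 1 to 4, against 5.63, 5.53, 5.58 and 5.70 in control rats 1 to 4. Every furan rat lay below every control rat, and furan rats 1 and 2 lay lowest. The mean level was 4.45 ± 0.43 after furan and 5.61 ± 0.08 in controls (SD, n = 4 each). The log2 change was -1.16 ± 0.20 (SE), or 0.447 times the control level, with a 95% interval of -1.63 to -0.70 and an adjusted p of 0.00413. The arrays lay on 2 slides, each with 2 rats of either group, and the log2 change was -1.50 on slide 1 (rats 1 and 2) and -0.82 on slide 2 (rats 3 and 4). Pck1 stayed called when any single rat was left out, and was not called on slide 1 alone (adjusted p = 0.0574) or slide 2 alone (adjusted p = 0.0516).

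G6pc encodes the catalytic subunit of glucose-6-phosphatase, which releases free glucose from the hepatocyte, and its brightest probe lies at chr10:90403940-90403999. Its log2 level was 3.70, 3.45, 4.51 and 4.38 in furan rats, against 4.58, 4.80, 4.81 and 5.32 in control rats. The groups did not overlap, but furan rat 3 lay just below control rat 1. The mean level was 4.01 ± 0.52 after furan and 4.88 ± 0.31 in controls (SD, n = 4 each). The log2 change was -0.87 ± 0.27 (SE), or 0.548 times the control level, at an adjusted p of 0.0371. The second G6pc probe, at chr10:90402888-90402947, read 0.73, -0.04, 1.39 and 0.93 in furan rats, against 1.27, 1.80, 1.70 and 2.29 in control rats. In a fit with every probe as a feature it changed by -1.01 ± 0.32 (SE) with an adjusted p of 0.0398, and furan rat 3 overlapped control rat 1. The G6pc call was lost without control rat 2 (adjusted p = 0.0650), 3 (0.0711) or 4 (0.0898) and without furan rat 1 (0.0790) or 2 (0.0903). It was also lost where dim probes were kept in the test (adjusted p = 0.0740), on slide 1 alone (0.0799) and on slide 2 alone (0.142).

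Fbp1 encodes liver fructose-1,6-bisphosphatase, the enzyme opposite phosphofructokinase, and its probe lies at chr17:7817936-7817995. Its log2 level was 6.66, 6.86, 7.22 and 7.59 in furan rats, against 7.81, 7.64, 7.69 and 7.89 in control rats. The groups did not overlap, although furan rat 4 came close to control rat 2. The mean level was 7.08 ± 0.41 after furan and 7.76 ± 0.11 in controls (SD, n = 4 each). The log2 change was -0.67 ± 0.20 (SE), or 0.627 times the control level, at an adjusted p of 0.0315. After quantile normalization in place of the 75th percentile the log2 change was -0.12 (adjusted p = 0.592), so the fall in Fbp1 depended on the scaling. The Fbp1 call was also lost without control rat 1 (adjusted p = 0.0681), 2 (0.0517), 3 (0.0617) or 4 (0.0770) and without furan rat 1 (0.0562) or 2 (0.0871). It was lost where dim probes were kept (adjusted p = 0.0658), on slide 1 alone (0.0866) and on slide 2 alone (0.256).

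**Figure D1:**
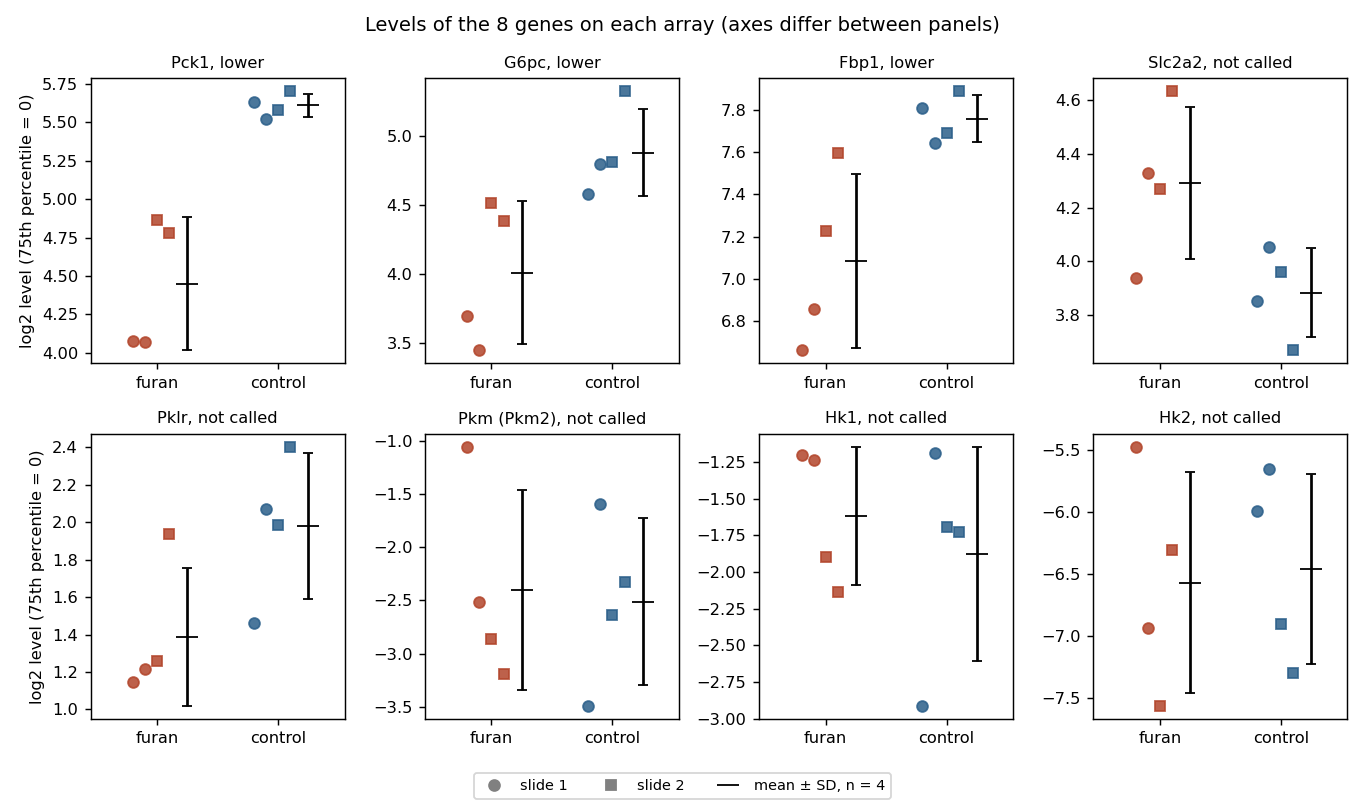
Log2 level of the 8 genes on each array (vertical axes, 75th percentile of the array at 0, scales differ between panels), furan left and control right; circles are slide 1, squares slide 2, and bars are mean ± SD of 4 rats. Pck1, G6pc and Fbp1 separate the groups with furan lower, and the other 5 genes overlap.

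Slc2a2, the gene of GLUT2 that carries glucose across the hepatocyte membrane, was not called. Its log2 level was 3.94, 4.33, 4.27 and 4.63 in furan rats, against 3.85, 4.05, 3.96 and 3.67 in control rats (probe at chr2:116065774-116065833). The groups overlapped through furan rat 1, and the log2 change was 0.41 ± 0.16 (SE) with an interval of 0.04 to 0.78 and an adjusted p of 0.0822. It was called higher without furan rat 1 (0.53, adjusted p = 0.0275), without furan rat 1 and control rat 2 together (0.58, adjusted p = 0.0343) and after normexp background correction (0.43, adjusted p = 0.0362).

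Pklr, the liver and red cell pyruvate kinase that makes pyruvate from phosphoenolpyruvate, was not called either. Its log2 level was 1.14, 1.21, 1.26 and 1.94 in furan rats, against 1.46, 2.07, 1.98 and 2.40 in control rats (probe at chr2:181223446-181223505). Furan rats 1, 2 and 3 lay below all controls and furan rat 4 lay among them. The log2 change was -0.59 ± 0.24 (SE), with an interval of -1.14 to -0.04 and an adjusted p of 0.0906. It was -0.59 on slide 1 and -0.60 on slide 2. Without furan rat 4 it was -0.77 (adjusted p = 0.0320), and without control rat 1 it was -0.76 (adjusted p = 0.0383), both past the threshold.

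Pkm, the non-liver pyruvate kinase, had a log2 level of -1.06, -2.51, -2.86 and -3.19 in furan rats, against -3.49, -1.59, -2.64 and -2.33 in control rats. The highest levels were those of furan rat 1 and control rat 2, and the lowest was that of control rat 1. The log2 change was 0.11 ± 0.52 (SE), with an interval of -1.09 to 1.31 and an adjusted p of 0.896. It was 0.75 on slide 1 and -0.54 on slide 2, and the difference between slides was not called (interaction adjusted p = 0.836). The probe at chr8:63507002-63507061 gave no call for Pkm, and its interval includes a rise or a fall of more than 1 log2 unit.

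Hk1, the hexokinase of most non-liver tissues, had a log2 level of -1.20, -1.24, -1.90 and -2.14 in furan rats, against -2.91, -1.19, -1.69 and -1.73 in control rats. The groups overlapped over most of their range, with control rat 1 lowest. The log2 change was 0.26 ± 0.38 (SE), with an interval of -0.60 to 1.12 and an adjusted p of 0.623. The annotation gives no rn4 position for this probe. Hk2, the insulin-responsive hexokinase of muscle and fat, read -5.48, -6.93, -7.56 and -6.31 in furan rats, against -5.99, -5.66, -6.90 and -7.29 in control rats (probe at chr4:116925790-116925849, minus strand). It was near background, with control rat 4 not well above it, and its log2 change of -0.11 ± 0.50 (SE) had an interval of -1.26 to 1.04 and an adjusted p of 0.890. After normexp background correction it was -0.45 and called lower (adjusted p = 0.0351).

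The name isoenzyme switch was set against the data by taking, within each array, a non-liver isoenzyme minus its liver counterpart. For pyruvate kinase, glucose transporters and phosphofructokinase, furan and control rats overlapped in each of these 3 pairs with all 8 rats included. Each pair was compared with an exact two-sided permutation test over 70 splits of the 8 arrays, whose smallest possible p is 0.0286, with adjustment over 5 pairs (these and the pairs of opposing steps described next). With 5 pairs, 1 pair that separates the groups fully can reach an adjusted p of 0.143 at best, so a pair that misses the threshold does not show that no switch took place. Such differences show unequal change of 2 probes and not which isoenzyme predominates.

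Pkm minus Pklr was -2.20, -3.73, -4.12 and -5.13 in furan rats, against -4.95, -3.66, -4.62 and -4.73 in control rats. Furan rat 1 was highest and furan rat 4 lowest, so the furan values enclosed all control values. The pair differed by 0.70 on the log2 scale (exact permutation p = 0.371, adjusted p = 0.464), with 1.34 for slide 1 and 0.05 for slide 2. It was 0.17 without furan rat 1 and 1.14 without furan rat 4. Slc2a1 minus Slc2a2, the widely expressed GLUT1 against GLUT2, differed by -0.30 (exact permutation p = 0.257, adjusted p = 0.429). Without furan rat 1 the groups of this pair did not overlap and it differed by -0.52 (exact permutation p = 0.0286, unadjusted), away from the non-liver form, while it was -0.19 without furan rat 3 and -0.17 without furan rat 4. Pfkp minus Pfkl, the platelet and liver phosphofructokinases, differed by 0.17 (exact permutation p = 0.771, adjusted p = 0.771), with 1.09 for slide 1 and -0.74 for slide 2. The sign of this pair rested on single rats, since it was -0.30 without furan rat 1, -0.11 without control rat 1 and 0.50 without furan rat 4. Of the non-liver forms in these pairs, Slc2a1 changed by 0.11 ± 0.16 (SE, adjusted p = 0.627) and Pfkp by 0.76 ± 0.52 (SE, adjusted p = 0.292), and neither was called.

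**Figure D2:**
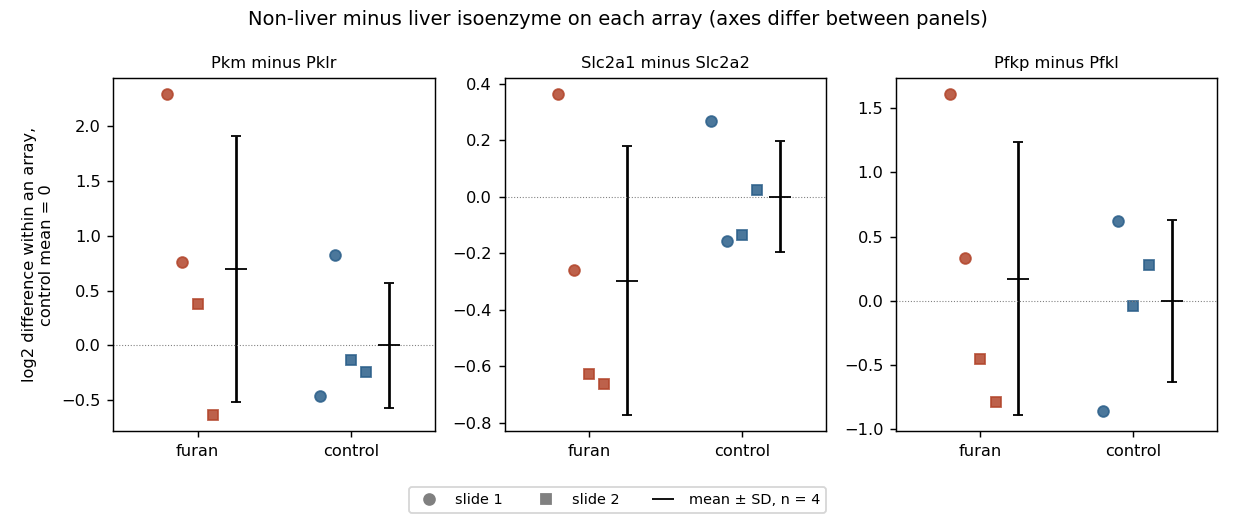
Non-liver minus liver isoenzyme within each array for 3 pairs (vertical axes, log2 difference with the control mean at 0, scales differ between panels), furan left and control right; circles are slide 1, squares slide 2, and bars are mean ± SD of 4 rats. The groups overlap in all 3 pairs, Pkm minus Pklr, Slc2a1 minus Slc2a2 and Pfkp minus Pfkl.

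The other 2 pairs set enzymes of opposing steps against each other. Pfkl minus Fbp1, the liver phosphofructokinase against the bisphosphatase, was higher after furan by 1.26 without overlap (exact permutation p = 0.0286, adjusted p = 0.143). Pfkl itself read -0.45, -0.26, -0.51 and -0.30 in furan rats, against -0.90, -0.92, -1.01 and -1.02 in control rats. Its log2 change was 0.58 ± 0.10 (SE, adjusted p = 0.00378), so within this pair the glycolytic enzyme was called higher and the gluconeogenic one lower. After quantile normalization, where Fbp1 was not called, the pair differed by 0.71. Pklr minus Pck1 differed by 0.57 (exact permutation p = 0.114, adjusted p = 0.286) with overlapping groups.

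Around the 8 genes, the gluconeogenesis list (15 genes, all tested) had 5 genes lower, 2 higher and 8 not called, with a median log2 change of 0.09. Over all features, 16.9% were called lower and 17.3% higher, the shares to set beside this and every list below. Beside Pck1, G6pc and Fbp1 the genes that fell were those of pyruvate carboxylase and alanine aminotransferase. Pc, which carries pyruvate into the pathway, read 3.20, 3.02, 3.84 and 3.67 in furan rats, against 4.72, 4.52, 4.56 and 4.41 in control rats. All furan rats lay below all controls, with a log2 change of -1.12 ± 0.19 (SE, adjusted p = 0.00364). Gpt, which makes pyruvate from alanine, changed by -0.92 ± 0.27 (SE, adjusted p = 0.0303) with overlapping groups. The Gpt call was lost without control rat 2 (adjusted p = 0.0716) or 4 (0.0770) and without furan rat 1 (0.0600), 2 (0.0843) or 3 (0.0536). The mitochondrial PEPCK gene, both malate dehydrogenases and both aspartate aminotransferases were among the 8 not called.

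The 2 genes that rose encode other forms of the enzymes of Fbp1 and G6pc. Fbp2, the muscle bisphosphatase, read -0.30, -0.43, -0.46 and 0.44 in furan rats, against -2.03, -2.37, -2.68 and -1.69 in control rats. The groups lay far apart, with a log2 change of 2.01 ± 0.27 (SE, adjusted p = 0.00161). G6pc3, the widely expressed glucose-6-phosphatase, changed by 1.08 ± 0.18 (SE, adjusted p = 0.00331), and by 0.60 after normexp background correction. Of 8 striated muscle markers, 3 were tested, of which 2 were lower and 0 higher after furan, and Myh1, Myh2, Myh4, Tnnt3 and Pvalb were not bright enough to test.

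The list of liver glycolysis and sugar uptake (6 genes, all tested) had 1 gene lower, 1 higher and 4 not called, with a median of -0.08. The fall was Gckr, a hepatocyte regulator of glucose phosphorylation, and the rise was Pfkl. Gckr read 3.51, 3.90, 4.25 and 4.62 in furan rats, against 5.09, 5.14, 5.03 and 5.13 in control rats. All furan rats lay below all controls, with a log2 change of -1.03 ± 0.22 (SE, adjusted p = 0.00848).

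Of 16 tested non-liver isoenzymes out of 17 listed (Slc2a3 was not tested), 2 rose, 0 fell and 14 were not called, with a median of 0.14. Over all features, 17.3% were called higher, so the list as a whole was not marked by rises. The rises were both aldolases. Aldoa, the form of muscle and fetal liver, read 1.75, 1.53, 1.16 and 1.12 in furan rats, against 0.09, 0.67, 0.30 and 0.26 in control rats. All furan rats lay above all controls, and the log2 change was 1.06 ± 0.18 (SE, adjusted p = 0.00384). Aldoc, the brain form, read -0.55, -0.74, -1.29 and -1.06 in furan rats, against -2.92, -1.93, -3.04 and -2.64 in control rats. These groups did not overlap either, and the log2 change was 1.72 ± 0.26 (SE, adjusted p = 0.00255).

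The glycolytic enzymes that liver shares with other tissues (8 genes, all tested) had 5 genes higher, 0 lower and 3 not called, with a median of 0.49. Tpi1, triosephosphate isomerase, rose by 0.73 ± 0.12 (SE, adjusted p = 0.00358), and Pgam1, phosphoglycerate mutase, rose by 0.60 ± 0.10 (SE, adjusted p = 0.00301). Eno1 (0.58, adjusted p = 0.00776) and Gapdh (0.39, adjusted p = 0.0446), named after their values were seen, were the next of the 5. The last was Pfkfb2, an enzyme of the regulator fructose 2,6-bisphosphate, at 1.26 ± 0.24 (SE, adjusted p = 0.00546), which was 0.13 and not called (adjusted p = 0.395) after normexp background correction. Lactate dehydrogenase A, phosphoglycerate kinase and phosphoglucose isomerase were not called.

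**Figure D3:**
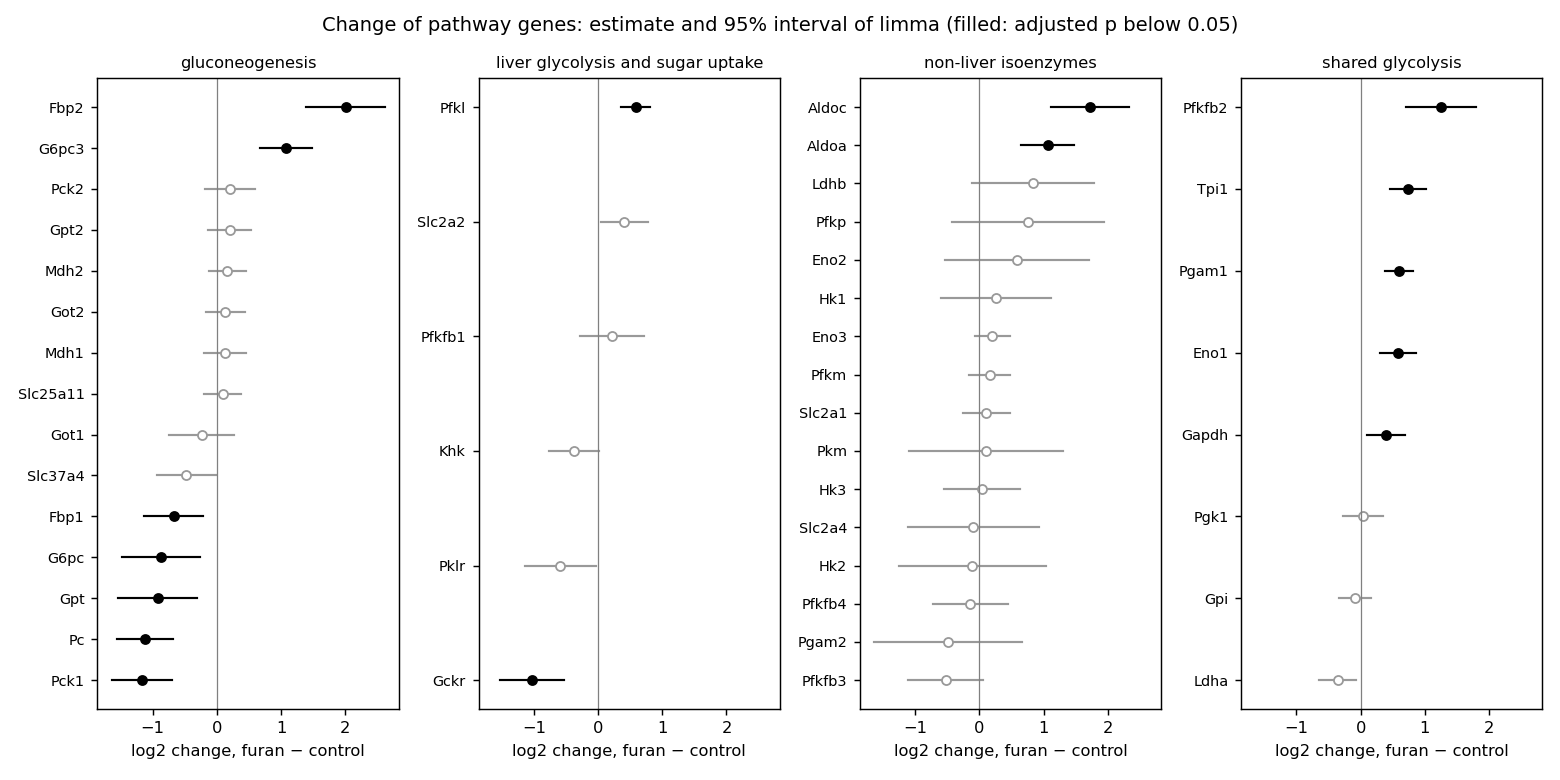
Log2 change, furan minus control (horizontal axis), of each tested gene of 4 lists; points are limma estimates, lines their 95% intervals, and black filled points have an adjusted p below 0.05. The gluconeogenesis list holds 5 lower and 2 higher calls, and the liver glycolysis list 1 lower and 1 higher. The non-liver and shared lists hold 2 and 5 higher calls and 0 lower.

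The list of glucose regulators held hormone receptors, signalling proteins and transcription factors, the splicing factors Ptbp1 and Hnrnpa1 and the hormone target genes Igfbp1 and Tat. Of its 23 tested genes out of 24 (Foxo1 was not tested), 9 fell, 1 rose and 13 were not called, with a median of -0.48. The glucagon receptor Gcgr, whose signal raises Pck1 through cyclic AMP, read 2.00, 2.12, 2.59 and 2.79 in furan rats, against 3.25, 3.28, 3.27 and 3.41 in control rats. The groups did not overlap, and the log2 change was -0.93 ± 0.18 (SE, adjusted p = 0.00624). The glucocorticoid receptor Nr3c1 fell by 0.96 on the log2 scale (adjusted p = 0.00138) and the hepatocyte factor Hnf4a by 0.98 (adjusted p = 0.00740). With the mean of all probes of a gene in place of the brightest, the change of Nr3c1 was -0.59. On the side of insulin, which lowers Pck1 and G6pc, the receptor gene Insr changed by -0.38 (adjusted p = 0.0414) with overlapping groups. The insulin signalling gene Irs1 changed by -0.58 (adjusted p = 0.0213), and both were named after their values were seen. The gene that rose was Hnrnpa1, a splicing factor of the Pkm transcript, by 1.12 ± 0.18 (SE, adjusted p = 0.00284).

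Among 12321 named genes well above background on all 8 arrays, the 3 whose profile over the 8 arrays was closest to Pck1 were Lipc, Dpyd and Sugct. Each gene was centred on its own mean, and the root mean square distances were 0.0870, 0.0920 and 0.0991 log2 units. Lipc, the hepatic lipase gene, read 1.88, 1.86, 2.62 and 2.55 in furan rats, against 3.21, 3.35, 3.47 and 3.41 in control rats. As in Pck1, furan rats 1 and 2 lay lowest and furan rats 3 and 4 between them and the controls. This likeness follows from the choice of Lipc by its distance to Pck1.

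Markers of liver cell types were read on the same arrays. Of 12 hepatocyte markers, all tested, 7 were lower and 1 (Apoa1) was higher, with a median log2 change of -0.54 and no marker at background. Their summed signal, in multiples of the 75th percentile, was 1479 to 1801 in furan rats and 2056 to 2413 in control rats. The median hepatocyte marker lay -0.64, -0.70, -0.37 and -0.34 from the control mean in furan rats 1 to 4, and, as for Pck1, Pc and Gckr, furan rats 1 and 2 lay lowest. In bulk liver RNA, fewer hepatocytes and less RNA per hepatocyte cannot be told apart, and the part of hepatocyte markers in the falls of Pck1, G6pc and Fbp1 was not tested. Of 16 proliferation genes, 15 were higher and 0 lower, with summed signals of 4.56 to 8.38 in furan rats and 1.54 to 2.21 in control rats.

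Pkm, Hk1 and Pfkp were set beside biliary, stellate and lymphocyte markers on the same arrays, and no correlation was computed. Of 9 biliary markers, all tested, 3 were higher and 0 lower with a median of 1.54, and of 10 stellate and fibroblast markers 0 were called with a median of 0.23. The summed biliary signal was 9.79, 3.79, 1.73 and 1.45 in furan rats, against 0.709, 5.55, 1.11 and 0.790 in control rats. The summed stellate signal was 28.0, 14.9, 8.94 and 6.94 in furan rats, against 4.97, 16.5, 10.9 and 7.82 in control rats. Of 10 lymphocyte markers, 7 were tested and 0 called, with a median of -0.15. Their summed signal was 0.812, 0.436, 0.416 and 0.386 in furan rats, against 0.294, 0.654, 0.522 and 0.551 in control rats. In each of these lists furan rat 1 and control rat 2 held the highest sums and control rat 1 the lowest, so this order was not particular to 1 cell type. The same rats held the highest and lowest levels of Pkm and Hk1. Pfkp was highest in furan rat 1 and lowest in control rat 1, but furan rat 2 (0.02) lay above control rat 2 (-0.35). The part of these cells in the levels of Pkm, Hk1 and Pfkp was not tested. The summed macrophage signal was instead highest in control rat 4 (40.1). Without furan rat 1 and control rat 2 together, 1 of the 8 genes was called lower (Pck1) and 1 higher (Slc2a2).

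**Figure D4:**
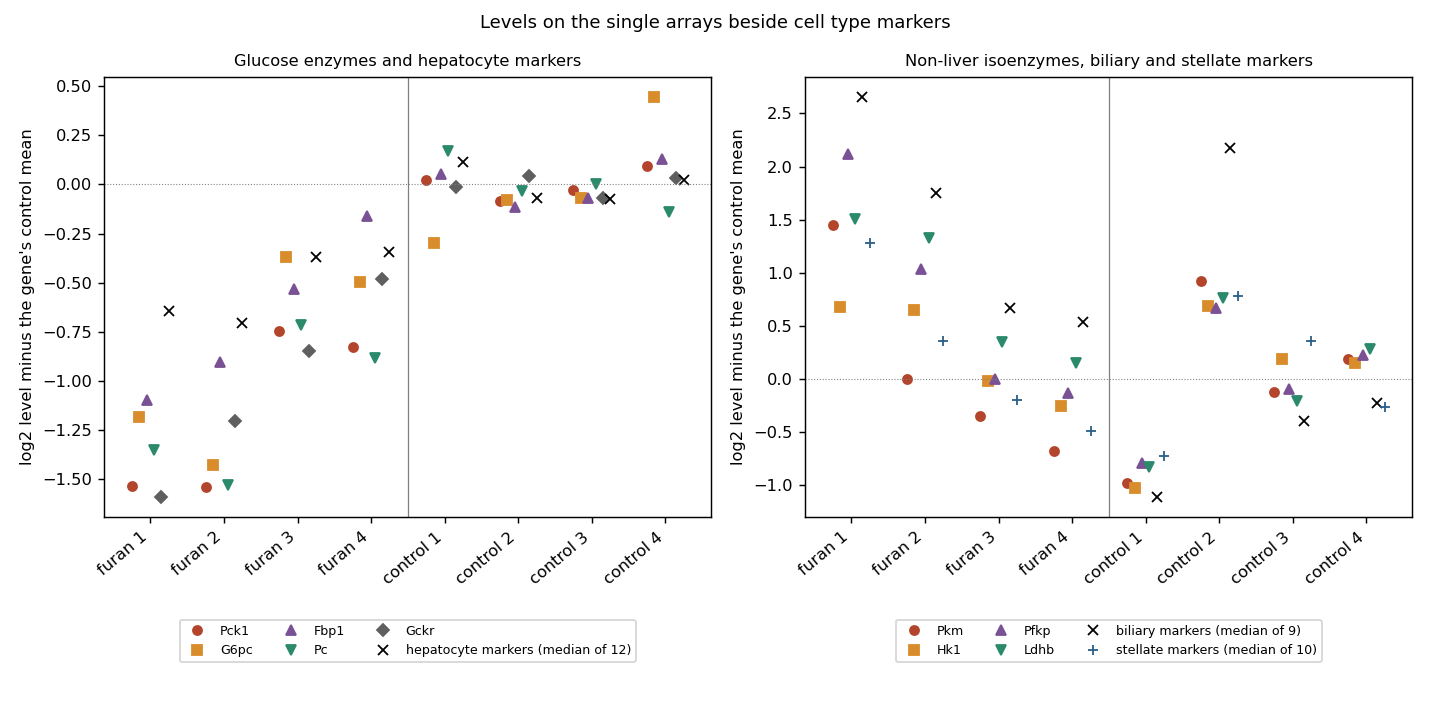
Log2 level on each array minus the gene's control mean (vertical axes), with furan rats left of control rats; the left panel sets 5 glucose genes beside the median of 12 hepatocyte markers, and the right panel sets 4 non-liver isoenzymes (Ldhb chosen after its values were seen) beside medians of 9 biliary and 10 stellate markers. The glucose genes lie lowest in furan rats 1 and 2. Each of the 4 non-liver isoenzymes is highest within its group in furan rat 1 and control rat 2, and lowest of all in control rat 1. For Pfkp and Ldhb, furan rat 2 also lies above control rat 2.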

How the data were processed

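Liver RNA of 4 furan-treated and 4 control rats was hybridised to 1-colour Agilent rat arrays. Per the file headers and the submitters' processing notes, the authors extracted signals with Agilent Feature Extraction 10.7, and the deposited scanner files give a background-subtracted intensity for each spot. The deposited series table holds the same intensity scaled to a 75th percentile of 1000, and was used as an alternative. Non-uniform and outlier spots were dropped, the other spots of a probe were averaged, and levels are log2 of the deposited processed intensity minus log2 of the array's 75th percentile. No spot was saturated, and between 70.9% and 78.5% of spots lay well above background. The 75th percentile was 1256 to 1596 in furan arrays and 827 to 1057 in control arrays. Repeat spots varied by 20.9% (median CV) on furan array 1 and by 12.0% to 14.6% on the others. The number of arrays limits the precision.

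A probe was tested where well above background on all 4 arrays of a group, and the brightest tested probe stood for a gene. Changes were tested two-sided in R 4.3.3 with limma 3.58.1 (linear model with empirical Bayes), with Benjamini-Hochberg adjustment over 17678 features and a threshold of 0.05. On simulated data with 200 of 17678 features changed, 64% of changes of 1 log2 unit and 88% of 2 log2 units were recovered. There were 12 false calls. The simulated noise was independent between features, and 34.1% of features were called in the real data, so these rates need not hold there. The members and gene lists were chosen with earlier results of these data known. Named were the 8 genes, the genes of the pairs, the 3 largest called changes in each direction of each pathway list, and the 3 genes closest to each member changed by at least 1 log2 unit. The alternatives were normexp (offset 50), quantile normalization, other probe filters and summaries, a variance trend, slide and replicate as blocks, single slides and each rat left out. A slide by treatment interaction was added after the data were seen. The planned comparison of protein sequences was not made, and some planned pairs and list members are not reported here. Replicate numbers did not pair the rats: they are separate animals, and same-number correlations of deviations were -0.303, 0.116, 0.279 and 0.0396.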

Additional observations from a re-analysis of the deposited data

Results flagged for a closer look

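Over 70 groups of 4 arrays (35 named genes), 3 held a rat whose log2 level stood apart from the other 3 by Dixon's test, and chance flags about 1 in 20 groups. Pklr in furan rat 4 was 1.94, against 1.14 to 1.26 in the other furan rats. Nr3c1 in furan rat 3 was -1.74, against -1.94 to -1.91 in the other furan rats. Gcgr in control rat 4 was 3.41, against 3.25 to 3.28 in the other controls.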

How the results depend on the processing

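With 4 rats a group, features called were 3054 higher and 2982 lower. Slide 1 alone gave 126 higher and 36 lower, and slide 2 alone 681 and 471. Normexp background correction gave 2800 higher and 6001 lower and moved the median of all features to -0.18. Leaving out each rat gave 2235 to 3012 higher and 1933 to 2955 lower, the lowest without furan rat 2. Of the 8 genes, 3 were called lower. That count was 1 with dim probes kept, 0 on slide 1 alone, 0 on slide 2 alone, 1 without furan rat 1 and control rat 2 together, and 1 to 4 with single rats left out. The count called higher was 0, and it was 1 under normexp, 1 without that pair of rats and 0 to 1 with single rats left out. Of 3 isoenzyme pairs, 0 separated the groups, against 2 on slide 2 alone (both lower), 1 without furan rat 1 and control rat 2 together, and 0 to 1 with single rats left out (1 without furan rat 1, Slc2a1 minus Slc2a2). The replicate block, which pairs rats by number alone, gave 2380 higher and 2175 lower and 4 of the 8 genes lower, with Pklr added (adjusted p = 0.0340), and lost the calls of Pygb (0.0562) and Taldo1 (0.0710). The causes were not tested. The slide by treatment interaction called 0 of 17678 features.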

Other observations

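The pentose phosphate pathway, which makes NADPH and ribose from glucose 6-phosphate, had 2 of 5 tested genes higher and 0 lower after furan, with a median log2 change of 0.19 (Pgd was not tested). Tkt, transketolase, read 6.28, 6.33, 6.03 and 6.46 in furan rats, against 5.61, 5.60, 5.57 and 5.71 in control rats, a rise of 0.65 (adjusted p = 0.00427), and Taldo1, transaldolase, rose by 0.43 (adjusted p = 0.0255). The Taldo1 call was lost without control rat 2 (adjusted p = 0.0690), 3 (0.0653) or 4 (0.0535) and without furan rat 2 (0.0682) or 4 (0.0550).

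Of 12 glycogen genes, 3 rose and 2 fell, with a median of -0.28. Gyg1, the glycogenin that primes glycogen, rose by 0.96 (adjusted p = 0.000904; 0.52 under normexp), and the branching enzyme Gbe1 by 0.58 (adjusted p = 0.00770). Ppp1r3b, the liver glycogen-targeting subunit of protein phosphatase 1, changed by -1.47 (adjusted p = 0.00613; -0.97 under normexp). Brain glycogen phosphorylase Pygb changed by 1.30 with overlapping groups (adjusted p = 0.0289, and 0.67 under normexp). Liver phosphorylase Pygl changed by -0.49 (adjusted p = 0.0353). The muscle form Pygm changed by -0.34 and was not called (adjusted p = 0.126), so the non-liver forms did not share a direction. The Pygb call was lost without control rat 1 (adjusted p = 0.0581), 3 (0.0572) or 4 (0.0657) and without furan rat 1 (0.0622) or 2 (0.0805), and where dim probes were kept (0.0588). The Pygl call was lost without control rat 2 (adjusted p = 0.0851), 3 (0.0737) or 4 (0.0848) and without furan rat 1 (0.0596), 2 (0.0898) or 3 (0.0508).

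Of 13 genes of pyruvate and lactate fate, 1 rose and 2 fell, with a median of -0.16. Dlat, a subunit of pyruvate dehydrogenase, rose by 0.48 (adjusted p = 0.0124). Pdk1, a kinase that inhibits that complex, changed by -0.61 (adjusted p = 0.0142). Mpc2, of the mitochondrial pyruvate carrier, changed by -0.69 (adjusted p = 0.0231), and its call was lost without control rat 3 (adjusted p = 0.0620) or furan rat 2 (0.0673). With dim probes kept in the test, the calls of Gpt (adjusted p = 0.0621), Pygl (0.0756), Taldo1 (0.0605) and Mpc2 (0.0509) were also lost. Without furan rat 1 and control rat 2 together, the calls of Dlat (0.0598), Pdk1 (0.0619), Mpc2 (0.0559), Taldo1 (0.0752), Gpt (0.119) and Pygl (0.126) were lost.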
